A study of Drosophila melanogaster with 24 samples.

Results

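Glutathione transferase genes of Drosophila melanogaster were followed across 3 Rel genotypes and 2 injury states. A gene was included when its symbol in the deposited gene table was Gst followed by 1 class letter (D, E, O, S, T or Z) and a digit. The rule uses no measured value, but it was set with earlier results of these data known. The rule found 35 of the 17768 genes of the table: 11 of class D (delta), 14 of class E (epsilon), 3 of class O (omega), 1 of class S (sigma), 4 of class T (theta) and 2 of class Z (zeta). All 35 passed the low-count filter, which left 13868 genes for testing.

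RNA came from whole male flies of a yw background aged 1 to 7 days and kept at 25 °C, and the study asked how a mutation of Rel bears on the response to traumatic brain injury. The genotypes were +/+ (wild type), +/Reldel (heterozygotes) and Reldel/Reldel (homozygotes), each sampled uninjured and 4 h after injury, with 4 libraries in each of the 6 groups. Whole flies mix all tissues, so a change in the number of cells of a type and a change in RNA per cell cannot be told apart. Whether the replicates of a group came from separate cultures is not stated, and the p-values below rest on the variation among these libraries, which may be technical.

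Glutathione transferases join the tripeptide glutathione to electrophilic compounds, among them products of lipid peroxidation, plant toxins and insecticides. The delta and epsilon classes have expanded in insects and lie in gene clusters, and several of their genes respond to oxidants through the transcription factor Cnc and its inhibitor Keap1. Omega, sigma, theta and zeta enzymes are shared with mammals: omega enzymes act as thioltransferases, and zeta enzymes isomerise maleylacetoacetate in tyrosine breakdown. Rel encodes Relish, the NF-κB factor of the Imd immune pathway.

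Library totals ranged from 6543632 to 14660491 counts, and 3 counts corresponded to 0.203 to 0.465 CPM. CPM values here are counts scaled by the effective library size. Rel had 456 to 1016 counts in the uninjured wild-type libraries and 0 or 1 in each homozygous library, as the genotype labels say. Male marker genes summed to between 2735 and 7239.6 CPM in every library. Female marker genes summed to 183 CPM in wild-type injured replicate 4 and to 7.30 CPM or less in the other libraries. Homozygous injured replicate 1 stood apart, with a mean correlation of 0.952 with the other libraries of its group against 0.971 to 0.984 for the rest. Counts of called genes that use either library are given with and without it.

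In uninjured wild type, GstD1 had the highest level per length of transcript, 424 ± 88.2 CPM per kb (SD, n = 4, as for all levels). GstD1 can dechlorinate DDT and is widely used as a reporter of oxidative stress. It was followed by GstS1, an enzyme abundant in flight muscle that conjugates a product of lipid peroxidation, at 249.7 ± 45.4 CPM per kb. GstE12 stood at 159.6 ± 16.9 CPM per kb and GstO2 at 126 ± 5.44 CPM per kb. The ranges of GstD1 (313 to 529), GstS1 (194 to 295) and GstE12 (135 to 172) did not overlap their neighbours in this order, and that of GstO2 (120.3 to 133) overlapped the next gene, GstE6 (110.2 to 128).

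After GstO2 came GstE6, GstO3, GstE3, GstE9 and GstD9, whose ranges each overlapped the next, and their means ran from 115 down to 82.9 CPM per kb. GstD3 and GstO1 (51.9 and 43.9) formed the next overlapping pair. GstT1, GstT4, GstE1 and GstE7 lay between 36.7 and 28.6, again with no overlap with the gene above or below the run. From GstE5 at 20.6 through GstT2, GstE8, GstT3, GstD2, GstE4, GstE13, GstD5, GstE11, GstZ2, GstE10, GstE2, GstD10 and GstZ1 to GstD11 at 6.11 CPM per kb, each gene overlapped the next. The lowest were GstD8 (3.53), GstE14 (3.23), GstD6 (2.11), GstD4 (1.05) and GstD7 (0.777), and their ranges overlapped from each to the next. Class D thus held the highest gene and 4 of the 5 lowest, while the 2 class Z genes stood at 9.95 and 6.25 CPM per kb.

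**Figure D1:**
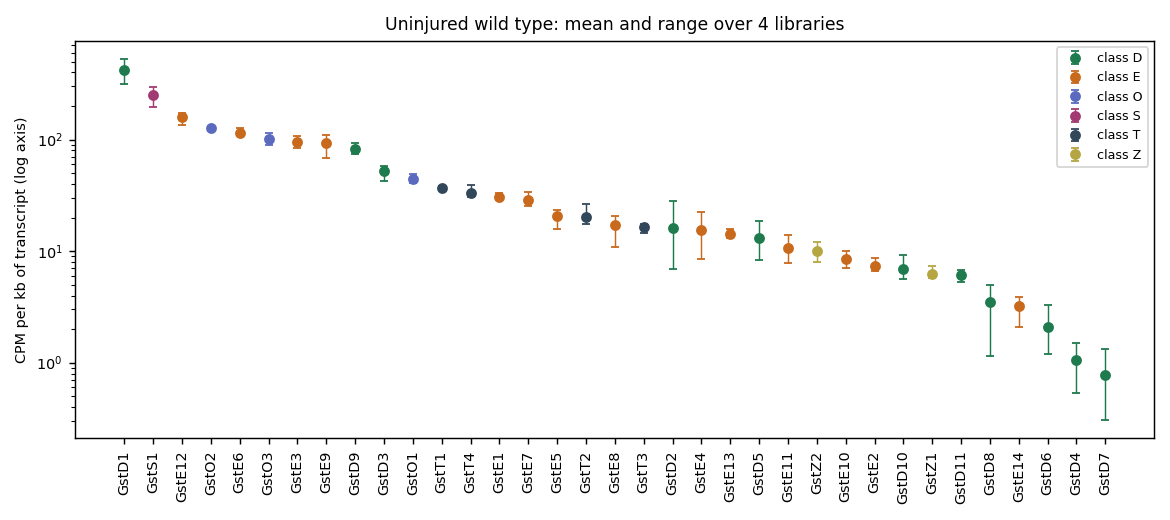
Level of each of the 35 genes in uninjured wild type as CPM per kb of transcript on a log axis (points: mean; bars: lowest and highest of 4 libraries; colour: class). GstD1 stands at 424 CPM per kb and GstD7 at 0.777 CPM per kb, with the other class D genes spread between them.

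The genes called after brain injury were mainly of class D. In wild type, 7 of the 35 genes rose and 1 fell, where 3.79% of all genes tested were called, 3.35% higher and 0.433% lower. The risers were GstD1, GstD2, GstD4, GstD5, GstD7 and GstD9 and the epsilon gene GstE10, and the zeta gene GstZ2 fell. In heterozygotes 5 rose (GstD1, GstD2, GstD4, GstD5 and GstE10) and GstZ2 fell, against 4.74% of all genes called, 3.24% higher and 1.5% lower. In homozygotes 2 rose (GstD2 and GstD5) and GstO2 fell. Of all genes 5.86% were called there, 4.71% higher and 1.15% lower, so 3 of 35 stood near the background. Without wild-type injured replicate 4, 7 genes in place of 8 were called in wild type, and without homozygous injured replicate 1, 3 were called in homozygotes as before.

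By class, the median log2 fold change after injury in class D was 0.83 in wild type, 0.90 in heterozygotes and 0.25 in homozygotes, beside -0.01 over all genes tested in each genotype. All 11 class D estimates were above 0 in wild type, 9 in heterozygotes and 8 in homozygotes. The class E medians were 0.15, 0.00 and -0.04, with 1, 1 and 0 of 14 genes called. Class T medians were 0.32, 0.20 and 0.08 with no gene of 4 called, and class O medians were -0.11, -0.17 and -0.36. GstS1, the only sigma gene, was called in none of these comparisons, with log2 fold changes of -0.24 ± 0.17, 0.11 ± 0.17 and -0.28 ± 0.17 in wild type, heterozygotes and homozygotes (each log2 fold change is given with its standard error after ±).

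Averaged over the 3 genotypes, 11 of the 35 genes rose after injury and 3 fell, where 18.3% of all genes were called, 11.6% higher and 6.71% lower. Of the 11 class D genes 6 rose (GstD1, GstD2, GstD4, GstD5, GstD8 and GstD9), with GstE3, GstE7 and GstE10, GstT3 and GstT4. GstO1, GstO2 and GstZ2 fell. The largest average increases were those of GstD5 (2.41), GstD4 (2.04) and GstD2 (1.99), and the largest decrease was that of GstZ2 (-0.81). The average called 14 genes in all, also 14 without either library.

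Part of the Malpighian tubule marker list rose with injury as well. Its 4 genes, none at 0, summed to 120.0 to 135 CPM in uninjured and 194 to 439 CPM in injured wild type. Of these, 1 rose in wild type and 2 in the average, where the median log2 fold change was 0.22. The medians were 0.42 in wild type, 0.27 in heterozygotes and 0.05 in homozygotes. Hemocyte markers went the other way, with 3 of 4 lower after injury in the average and a median log2 fold change of -0.74. Of the fat body list 2 of 3 tested genes were lower in that average (median -0.47). Eye markers, 7 genes with none at 0, summed to 6709.6 to 10469.6 CPM in uninjured and 5509 to 6338 CPM in injured wild type without overlap, and 1 of 7 was lower in the average. The sums overlapped between injury states in heterozygotes and in homozygotes. Median log2 fold changes of the eye list were -0.51 in wild type, -0.34 in heterozygotes and 0.17 in homozygotes. The part of these cell types in the changes of glutathione transferase genes was not tested.

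**Figure D2:**
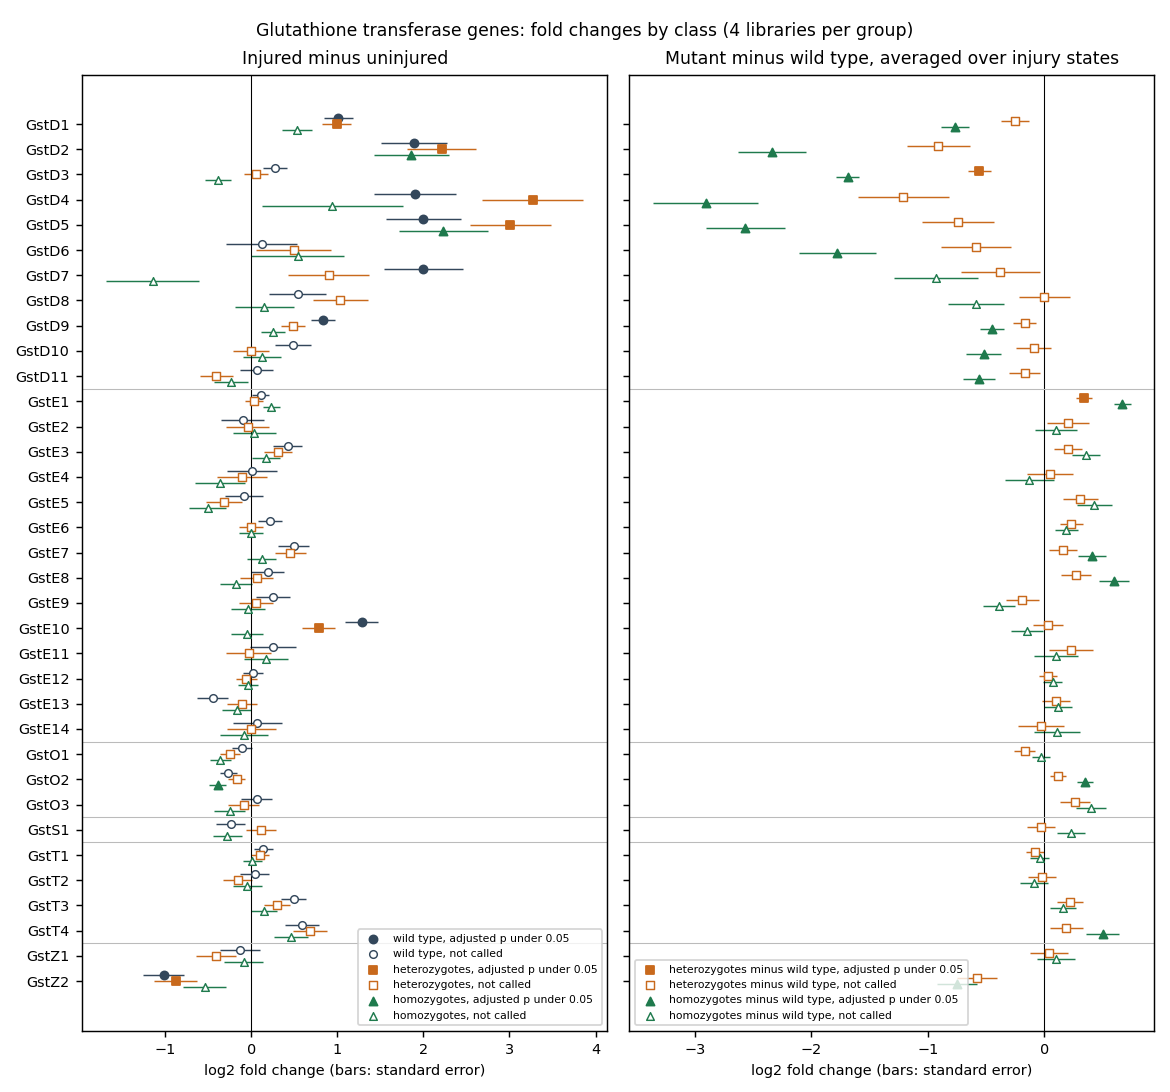
Log2 fold changes with standard errors for all 35 genes, injured minus uninjured in each genotype (left) and mutant minus wild type averaged over injury states (right), grouped by class from D at the top to Z at the bottom; filled symbols had an adjusted p under 0.05. In the right panel all 11 class D estimates of the homozygotes lie left of 0, from -2.91 for GstD4 to -0.45 for GstD9.

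Loss of Rel went with lower class D expression in both injury states. Averaged over injury states, 10 of the 35 genes were lower and 5 higher in homozygotes than in wild type, against 9.11% of all genes called, 4.49% lower and 4.62% higher. The lower genes were 9 of the 11 class D genes, all but GstD7 and GstD8, and GstZ2. GstE1, GstE7, GstE8, GstO2 and GstT4 were higher. The class D median was -0.93, the class E median 0.12 and the median of all genes 0.00.

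Within uninjured flies, 5 genes were lower in homozygotes (GstD2, GstD3, GstD5, GstD6 and GstZ2) and 3 higher (GstE1, GstE8 and GstO2), against 3.96% of all genes called, 1.97% lower and 1.99% higher. Within injured flies 9 were lower (GstD1, GstD2, GstD3, GstD4, GstD5, GstD7, GstD9, GstD11 and GstE10) and GstE1 was higher, against 4.28% of all genes called, 2.35% lower and 1.93% higher. Without homozygous injured replicate 1 the injured comparison called 12 genes in place of 10 and the average 18 in place of 15. Without wild-type injured replicate 4 these counts were 9 and 12. The uninjured comparison called 5 genes in place of 8 without wild-type uninjured replicate 2 or homozygous uninjured replicate 3.

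Heterozygotes differed from wild type in few genes. No member was called in uninjured flies by edgeR's quasi-likelihood test, where 0.498% of all genes were called, 0.389% higher and 0.108% lower; 8 of 35 members (22.9%) and 1323 of all genes (9.54%) had an unadjusted p under 0.05. DESeq2 called 141 of all genes, of which GstE1 was the only member, and called no member among 143 genes when it was run on the genes that passed the low-count filter. In injured flies GstD3 was lower, against 0.296% of all genes called, 0.0793% lower and 0.216% higher. In the average GstD3 was lower and GstE1 higher, against 1.49% of all genes called, 0.548% lower and 0.937% higher. All 11 class D estimates of that average were below 0, with a median of -0.38. Without wild-type injured replicate 4 the injured comparison called 0 members, and the average still called 2.

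Homozygotes against heterozygotes gave 4 lower genes (GstD1, GstD2, GstD3 and GstD5) and 1 higher gene (GstE1), against 2.55% of all genes called, 1.8% lower and 0.75% higher. The class D median was -0.59, and without homozygous injured replicate 1 this comparison called 8 genes in place of 5. Genotype comparisons share the libraries of a group, as do the injury and genotype comparisons, so their values are set side by side and not correlated.

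Midgut markers differed with genotype too: 5 of the 8 genes of that list were higher in homozygotes in the average, with a median log2 difference of 1.36. They summed to 263 to 1480.5 CPM in uninjured wild type and 795 to 4761 CPM in uninjured homozygotes, with none at 0. Eye markers summed to 5339 to 6371 CPM in uninjured homozygotes, below all uninjured wild-type libraries, and 3 of 7 were lower there, while in the average 0 of 7 were called (median -0.34). The part of either in the values of glutathione transferase genes was not tested.

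The difference of injury responses between genotypes was tested directly. For homozygotes minus wild type, edgeR's quasi-likelihood test called 0% of all genes and no member. In that test 4 members (11.4%) and 647 of all genes (4.67%) had an unadjusted p under 0.05. Those 4 were GstD3 with -0.65 (95% interval -1.07 to -0.23), GstD7 with -3.14 (95% interval -4.64 to -1.65), GstD9 with -0.58 (95% interval -0.99 to -0.16) and GstE10 with -1.33 (95% interval -1.90 to -0.76). Their unadjusted intervals exclude 0 because these 4 were picked by unadjusted p. DESeq2 called 3 of all genes, among them GstE10 (log2 difference -1.32, adjusted p = 0.0279). For GstD1 the difference was -0.48 (95% interval -0.97 to 0.01), and for GstD5 it was 0.23 (95% interval -1.16 to 1.63). For heterozygotes minus wild type, edgeR called no gene of 13868 and DESeq2 none of 16459 with a p-value. By edgeR, 0 members and 363 of all genes (2.62%) had an unadjusted p under 0.05.

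Summed over its 11 genes, class D had more reads in injured than in uninjured flies in each genotype. It summed to 493 ± 72.9 CPM in uninjured and 977 ± 66.1 CPM in injured wild type, to 414 ± 44.7 and 787 ± 102 CPM in heterozygotes, and to 331 ± 33.4 and 458 ± 57.6 CPM in homozygotes. As a share of all reads on the 35 genes this was 28% and 43.3% in wild type, 24.1% and 36.6% in heterozygotes and 17.8% and 24.6% in homozygotes. The summed level of injured homozygotes (392 to 522 CPM) overlapped that of uninjured wild type (395 to 565 CPM). Most of these reads were on GstD1, at 349.5 ± 72.8 CPM in uninjured and 705 ± 40.6 CPM in injured wild type.

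GstD1 had 357, 436, 347 and 258 CPM in the 4 uninjured and 714, 721, 739 and 646 CPM in the 4 injured wild-type libraries. Heterozygotes had 247, 249, 339 and 346 CPM uninjured and 700.3, 632, 502 and 508 CPM injured. Homozygotes had 289, 201, 272 and 209 CPM uninjured and 290.1, 403, 339 and 368 CPM injured. Injured and uninjured libraries did not overlap in any genotype, although in homozygotes the gap was narrow. The log2 increase was 1.01 ± 0.17 (adjusted p = 0.00049) in wild type and 0.99 ± 0.17 (adjusted p = 0.000687) in heterozygotes by edgeR's quasi-likelihood test, and in homozygotes the estimate was 0.53 ± 0.17 (adjusted p = 0.0603). Injured homozygotes lay below every injured wild-type library, by -1.01 ± 0.17 (adjusted p = 0.000336), and the uninjured difference was -0.53 ± 0.17 (adjusted p = 0.0854). DESeq2 called both of the changes that edgeR did not call. They were injury in homozygotes (0.53, adjusted p = 0.0249) and uninjured homozygotes against wild type (-0.53, adjusted p = 0.0334).

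GstD9, a close neighbour of GstD1 in the cluster, had 72.5, 57.0, 62.4 and 65.3 CPM uninjured and 110.3, 113, 127 and 106 CPM injured in wild type. Its heterozygous libraries had 73.1, 73.6, 54.6 and 55.8 CPM and then 107, 77.3, 102 and 70.7 CPM. Homozygous libraries had 49.8, 68.3, 49.7 and 62.1 CPM uninjured and 67.6, 77.2, 63.4 and 65.8 CPM injured. The wild-type groups did not overlap, and the other genotypes overlapped between injury states. The increase was 0.83 ± 0.14 (adjusted p = 0.000708) in wild type, with estimates of 0.48 ± 0.14 (adjusted p = 0.0512) in heterozygotes and 0.25 ± 0.14 (adjusted p = 0.298) in homozygotes. DESeq2, unlike edgeR's quasi-likelihood test, called the heterozygous increase (0.48, adjusted p = 0.0235). After injury homozygotes were lower than wild type by -0.74 ± 0.14 (adjusted p = 0.00193).

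GstD2 had 20.9, 9.44, 12.3 and 5.13 CPM in uninjured and 30.3, 51.2, 48.5 and 43.8 CPM in injured wild type. Heterozygotes had 6.59, 3.94, 4.34 and 7.38 CPM uninjured and 33.6, 16.5, 35.3 and 17.8 CPM injured. Homozygotes had 1.79, 3.39, 1.60 and 2.50 CPM uninjured and 4.96, 15.6, 4.34 and 9.46 CPM injured. In each genotype the lowest injured library was above the highest uninjured one. GstD2 and GstD5 were the only members called for injury in all 3 genotypes by edgeR's quasi-likelihood test. The increases of GstD2 were 1.89 ± 0.38 (adjusted p = 0.00351) in wild type, 2.21 ± 0.40 (adjusted p = 0.00126) in heterozygotes and 1.86 ± 0.44 (adjusted p = 0.011) in homozygotes, the last of which was not called without homozygous injured replicate 2 (adjusted p = 0.0584). Homozygotes were lower than wild type uninjured, by -2.33 ± 0.43 (adjusted p = 0.00136), and injured, by -2.36 ± 0.39 (adjusted p = 0.000376).

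GstD5 had 15.8, 12.5, 7.02 and 9.01 CPM in uninjured and 28.0, 36.3, 77.6 and 34.0 CPM in injured wild type. Heterozygotes had 4.73, 4.41, 4.56 and 4.78 CPM uninjured and 35.6, 15.6, 51.3 and 46.9 CPM injured. In homozygotes the values were 1.59, 1.16, 2.11 and 1.87 CPM uninjured and 3.41, 4.68, 3.73 and 19.0 CPM injured. Groups of 1 genotype did not overlap between injury states, but in wild type 1 injured library and in homozygotes 1 injured library stood far above the other 3. The increases were 2.0 ± 0.44 (adjusted p = 0.00792), 3.01 ± 0.47 (adjusted p = 0.000322) and 2.23 ± 0.52 (adjusted p = 0.0103) in wild type, heterozygotes and homozygotes. The first was not called without wild-type injured replicate 3 (adjusted p = 0.0515). The last was not called without homozygous injured replicate 4 (adjusted p = 0.0765), where the log2 estimate was 1.22, nor with only the homozygous groups in the fit (adjusted p = 0.0702). Homozygotes were lower than wild type by -2.69 ± 0.52 (adjusted p = 0.00195) uninjured and -2.45 ± 0.45 (adjusted p = 0.00127) injured, and the injured estimate was -3.48 without homozygous injured replicate 4.

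**Figure D3:**
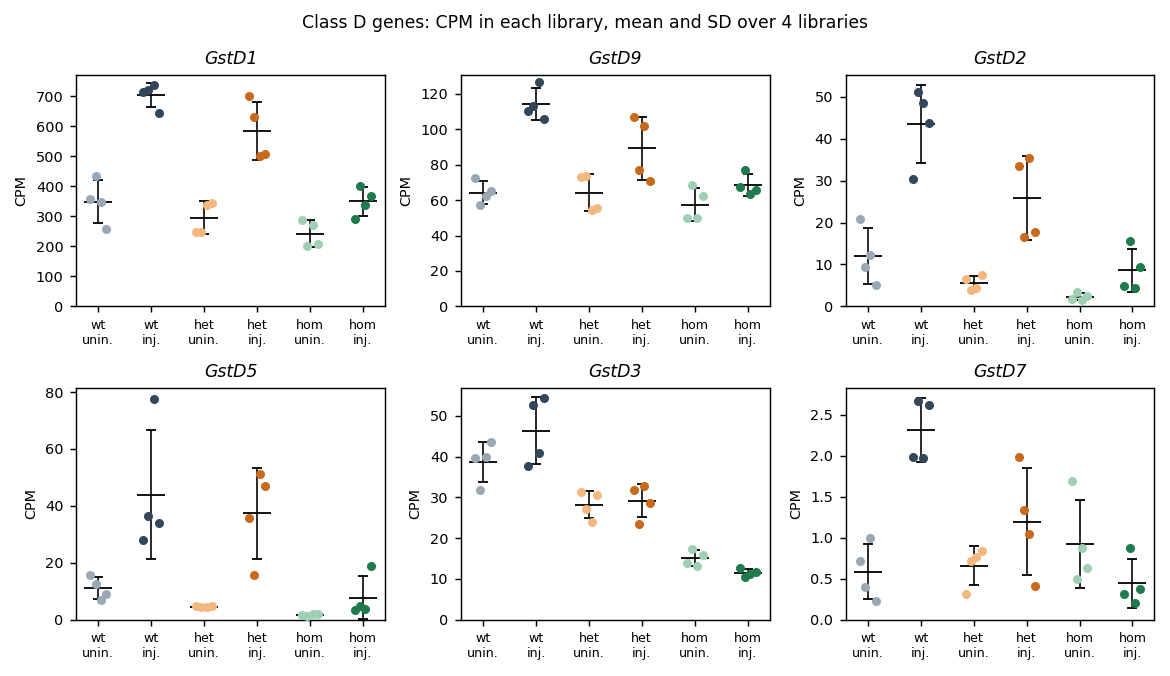
CPM in each library for 6 class D genes (points: libraries; bars: mean and SD over 4 libraries; wt, het and hom: wild type, heterozygous and homozygous; unin. and inj.: uninjured and injured). GstD1 reaches 646 to 739 CPM in injured wild type and 290.1 to 403 CPM in injured homozygotes, and GstD3 steps down from wild type over heterozygotes to homozygotes in both injury states.

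GstD3, unlike GstD2 and GstD4 beside it, was called for genotype and in no injury comparison. Wild type had 39.6, 31.8, 40.0 and 43.5 CPM uninjured and 37.7, 52.6, 41.0 and 54.3 CPM injured. Heterozygotes had 31.4, 27.1, 24 and 30.5 CPM uninjured and 31.7, 23.6, 32.8 and 28.7 CPM injured. Homozygotes had 13.8, 17.4, 13.1 and 15.9 CPM uninjured and 12.6, 10.5, 11.3 and 11.6 CPM injured. Within each injury state the 3 genotypes did not overlap: wild type was highest and homozygotes lowest. Injury groups overlapped in wild type and heterozygotes, and in homozygotes the injured libraries were the lower ones. Homozygotes were lower than wild type by -1.36 ± 0.14 (adjusted p = 6.19e-07) uninjured and by -2.02 ± 0.15 (adjusted p = 1.6e-09) injured. Heterozygotes were lower than wild type in the average by -0.56 ± 0.10 (adjusted p = 0.00199), and homozygotes lower than heterozygotes by -1.13 ± 0.10 (adjusted p = 7.36e-08). The heterozygous difference in injured flies, -0.67 ± 0.14 (adjusted p = 0.0293), was not called without wild-type injured replicates 2 and 4 or heterozygous injured replicates 2 and 4 (adjusted p = 0.0934 to 0.167), nor with only the compared groups in the fit (adjusted p = 0.197). The injury estimates were 0.27 ± 0.14 (adjusted p = 0.395) in wild type, 0.05 ± 0.14 (adjusted p = 0.893) in heterozygotes and -0.39 ± 0.15 (adjusted p = 0.121) in homozygotes.

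GstD4 was sparse, so its counts are given. Wild type had 7, 7, 5 and 14 counts uninjured and 13, 27, 30 and 41 counts injured. Heterozygotes had 1, 0, 6 and 2 counts uninjured and 26, 17, 24 and 16 counts injured. Homozygotes had 2, 0, 1 and 3 counts uninjured and 0, 1, 3 and 7 counts injured. Uninjured mutants and injured homozygotes thus held 7 counts or fewer in every library, and the wild-type and heterozygous groups did not overlap between injury states in CPM. The increases were 1.90 ± 0.48 (adjusted p = 0.0237) in wild type and 3.27 ± 0.59 (adjusted p = 0.0013) in heterozygotes, with an estimate of 0.94 ± 0.82 (adjusted p = 0.531) in homozygotes. The wild-type call was lost without wild-type injured replicates 3 and 4 or wild-type uninjured replicates 2 and 3 (adjusted p = 0.0562 to 0.109). The heterozygous estimate was 4.27 without heterozygous uninjured replicate 3, the library with 6 counts. Injured homozygotes were lower than wild type by -3.39 ± 0.57 (adjusted p = 0.000406), and the estimate was -4.22 without homozygous injured replicate 4.

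GstD6 and GstD7 were also close to the counting floor of 3 counts. GstD6 had 1.85, 2.58, 1.23 and 0.932 CPM and 1.07, 1.37, 2.25 and 2.33 CPM in uninjured and injured wild type. Its heterozygous values were 0.852, 1.43, 0.837 and 0.754 CPM and 0.941, 1.56, 1.78 and 0.954 CPM, and its homozygous values 0.598, 0.331, 0.581 and 0.0891 CPM and 0.620, 0.146, 0.407 and 1.05 CPM. Homozygotes lay below wild type without overlap in each injury state; the difference was -2.0 ± 0.48 (adjusted p = 0.0138) uninjured, lost without wild-type uninjured replicate 2 or homozygous uninjured replicate 4 (adjusted p = 0.0556 to 0.087), and the injured estimate was -1.57 ± 0.46 (adjusted p = 0.0566). DESeq2 called the injured difference (-1.60, adjusted p = 0.0406). The average difference was -1.78 ± 0.33 (adjusted p = 0.000715).

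GstD7 had 0.710, 0.403, 1.00 and 0.233 CPM in uninjured and 1.98, 2.67, 1.97 and 2.62 CPM in injured wild type. Heterozygotes had 0.310, 0.716, 0.761 and 0.838 CPM uninjured and 1.98, 1.34, 1.05 and 0.409 CPM injured. Homozygotes had 1.69, 0.496, 0.871 and 0.624 CPM uninjured and 0.310, 0.878, 0.203 and 0.376 CPM injured. Injury separated the libraries in wild type only. The wild-type increase was 2.0 ± 0.46 (adjusted p = 0.0128), lost without wild-type uninjured replicates 2 and 4 (adjusted p = 0.053 to 0.0808), while the estimates were 0.90 ± 0.47 (adjusted p = 0.314) in heterozygotes and -1.15 ± 0.54 (adjusted p = 0.212) in homozygotes. In injured flies homozygotes were lower than wild type by -2.51 ± 0.50 (adjusted p = 0.00302).

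GstD8 had 2.98, 4.03, 3.47 and 0.932 CPM in uninjured and 5.17, 4.43, 3.1 and 3.86 CPM in injured wild type, 1.63, 2.15, 2.59 and 3.19 CPM and 6.59, 3.80, 4.84 and 4.36 CPM in heterozygotes, and 2.89, 2.65, 1.38 and 1.78 CPM and 1.55, 2.78, 2.58 and 2.55 CPM in homozygotes. Injury separated its libraries in heterozygotes only. In heterozygotes GstD8 was called by DESeq2 (log2 increase 1.03, adjusted p = 0.0378) and not by edgeR's quasi-likelihood test. It rose in the average by 0.57 ± 0.19 (adjusted p = 0.0397), and this call was lost without wild-type injured replicates 1 and 2, wild-type uninjured replicate 1, heterozygous injured replicate 1, heterozygous uninjured replicates 1 and 2, homozygous injured replicates 2, 3 and 4 or homozygous uninjured replicates 3 and 4 (adjusted p = 0.0526 to 0.077).

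GstD10 and GstD11 lie at the 2 ends of the cluster. GstD10 had 7.95, 5.33, 5.4 and 4.82 CPM in uninjured and 5.63, 7.56, 11.4 and 7.93 CPM in injured wild type, 6.12, 7.16, 5.78 and 6.79 CPM and 6.49, 4.62, 7.75 and 6.95 CPM in heterozygotes, and 4.58, 5.04, 3.99 and 4.81 CPM and 6.20, 4.10, 3.73 and 6.08 CPM in homozygotes. Homozygotes were lower in the average by -0.52 ± 0.15 (adjusted p = 0.035), a call lost without wild-type injured replicates 3 and 4, wild-type uninjured replicate 1, homozygous injured replicates 2 and 3 or homozygous uninjured replicates 1, 3 and 4 (adjusted p = 0.0504 to 0.0876).

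GstD11 had 4.54, 5.33, 5.86 and 5.28 CPM in uninjured and 5.17, 4.89, 5.21 and 6.69 CPM in injured wild type, 5.19, 5.25, 4.56 and 7.21 CPM and 3.39, 4.62, 4.52 and 4.09 CPM in heterozygotes, and 4.09, 4.30, 3.34 and 4.19 CPM and 4.96, 3.22, 2.85 and 2.78 CPM in homozygotes. Homozygotes were lower in the average by -0.56 ± 0.14 (adjusted p = 0.00841). It was called in no injury comparison, and the averaged injury estimate was -0.20 ± 0.11 (adjusted p = 0.224). The difference in injured flies, -0.71 ± 0.20 (adjusted p = 0.0376), was lost without wild-type injured replicates 1, 3 and 4 or homozygous injured replicates 2, 3 and 4 (adjusted p = 0.0569 to 0.163), and with only the compared groups in the fit (adjusted p = 0.265).

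The 11 class D genes lie in 20.8 kb of chromosome arm 3R, at 12364776 to 12385624 in dm6 coordinates (Ensembl release 115), 3.32 to 3.34 Mb from Rel on the same arm. The strongest differences of homozygotes from wild type lay in the middle of the cluster, at GstD2 (-2.34), GstD3 (-1.69), GstD4 (-2.91), GstD5 (-2.57) and GstD6 (-1.78), which are neighbours on the plus strand. GstD10, GstD9 and GstD1 on the minus strand and GstD11 at the far end differed by -0.77 to -0.45. Injury gave its largest averages at GstD2, GstD4 and GstD5, with GstD3 between them at -0.02 ± 0.08.

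Other genes around the cluster also differed between genotypes. Within 100 kb of it, 8 of 42 tested genes outside the cluster were called for homozygotes against wild type (19%), 3 higher and 5 lower. Among them, chosen after their values were seen, were CG4115 (-1.04 ± 0.18), DNAlig3 (-1.04 ± 0.12) and Cyp9f3 (1.01 ± 0.18). Across 3R the share called was 14.7% under 1 Mb from Rel, 14.5% from 1 to 5 Mb and 11.8% beyond, against 7.83% on arms 2L, 2R, 3L and X. Lack of Rel and other differences of the linked chromosome cannot be told apart in this design. Near-identical class D genes may also share reads in the counting, and their split was not tested.

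**Figure D4:**
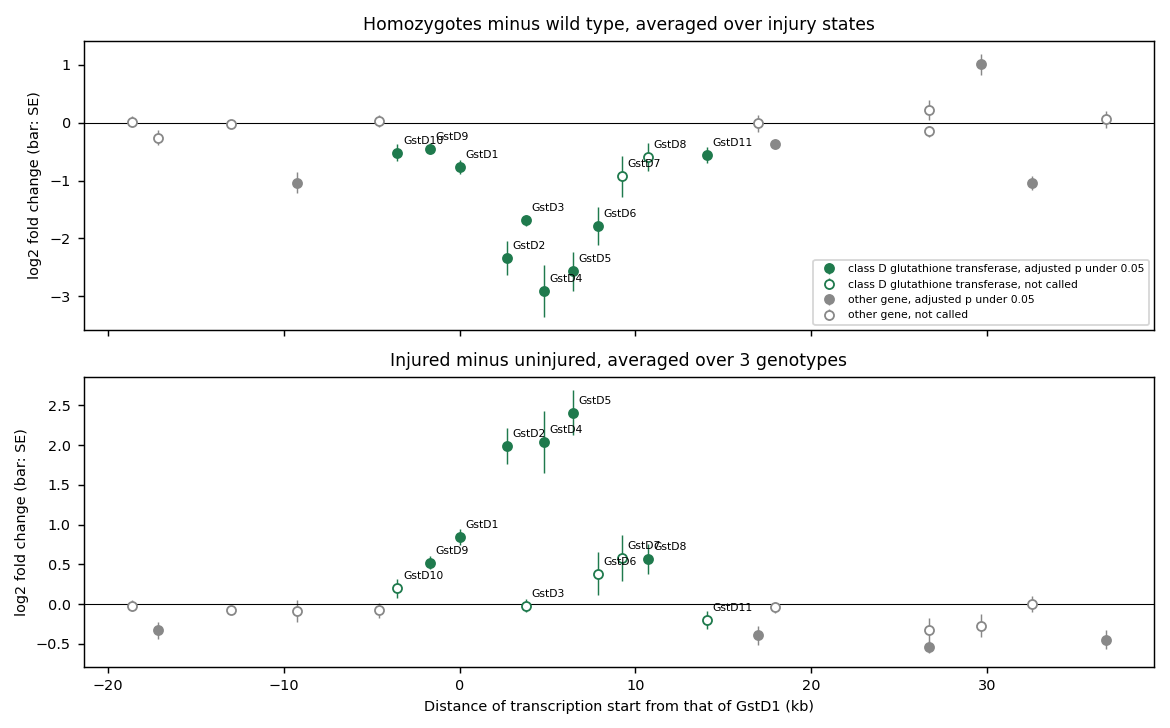
Log2 fold change with standard error of class D genes (green) and of other genes (grey) by distance of their transcription start from that of GstD1 in kb, for homozygotes minus wild type (top) and for injury averaged over genotypes (bottom); filled points had an adjusted p under 0.05. The lowest points in the top panel are GstD4 at -2.91 and GstD5 at -2.57, and in the bottom panel GstD3 lies near 0 between GstD2 at 1.99 and GstD4 at 2.04.

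In class E, 10 of the 14 genes (GstE1 to GstE10) lie in 13.2 kb of arm 2R. Among these, GstE1, GstE3, GstE7, GstE8 and GstE10 were called in at least 1 of the 13 comparisons. The injury average alone called 18.3% of all genes. GstE10 was the only epsilon gene that injury raised within a genotype. It had 9.37, 6.54, 7.41 and 8.08 CPM in uninjured and 15.5, 19.2, 25.6 and 15.4 CPM in injured wild type. Heterozygotes had 8.29, 12.2, 9.66 and 7.80 CPM uninjured and 17.4, 17.4, 12.8 and 17.3 CPM injured. Homozygotes had 12.9, 9.43, 10.2 and 12.1 CPM uninjured and 7.91, 12.7, 9.35 and 12.8 CPM injured. Injured libraries were all above uninjured ones in wild type and heterozygotes, and the groups overlapped in homozygotes. The increase was 1.28 ± 0.19 (adjusted p = 0.000202) in wild type and 0.78 ± 0.19 (adjusted p = 0.0161) in heterozygotes, the latter lost without heterozygous injured replicate 2 or heterozygous uninjured replicates 1 and 4 (adjusted p = 0.0558 to 0.0704) and with only the heterozygous groups in the fit (adjusted p = 0.0531), and the homozygous estimate was -0.05 ± 0.19 (adjusted p = 0.902). In injured flies homozygotes were lower than wild type by -0.81 ± 0.19 (adjusted p = 0.012), lost without wild-type injured replicate 3 (adjusted p = 0.062) and with only the compared groups in the fit (adjusted p = 0.0992).

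GstE1 was higher in homozygotes than in wild type in both injury states. Wild type had 26.4, 23.6, 24.5 and 27.5 CPM uninjured and 27.1, 25.7, 28.2 and 28.8 CPM injured. Heterozygotes had 33.7, 31.7, 30.4 and 36.4 CPM uninjured and 34.2, 33.2, 32.0 and 36.0 CPM injured. Homozygotes had 37.0, 39.6, 39.7 and 39.0 CPM uninjured and 55.7, 44.3, 41.7 and 41.2 CPM injured. The 3 genotypes did not overlap in either injury state, with heterozygotes between the others. Homozygotes were higher than wild type by 0.61 ± 0.10 (adjusted p = 0.000226) uninjured and 0.73 ± 0.10 (adjusted p = 2.16e-05) injured. Within injury states the heterozygous estimates were 0.37 ± 0.10 (adjusted p = 0.11) uninjured and 0.30 ± 0.10 (adjusted p = 0.376) injured, neither of which was called. In the averages heterozygotes were higher than wild type by 0.34 ± 0.07 (adjusted p = 0.00807) and homozygotes higher than heterozygotes by 0.33 ± 0.07 (adjusted p = 0.00519). Reads in the 127 bases that GstE1 and GstE10 share on opposite strands cannot be assigned, because the labels do not say whether counting used strand.

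GstE8 had 16, 8.31, 12.5 and 15.9 CPM in uninjured and 14.8, 14.5, 15.2 and 15.4 CPM in injured wild type. Heterozygotes had 14.6, 19.7, 15.7 and 16.3 CPM uninjured and 16.8, 17.2, 16 and 18.9 CPM injured. Homozygotes had 23.4, 21.8, 24.8 and 20.5 CPM uninjured and 11.6, 19.6, 22.4 and 25.4 CPM injured. All uninjured homozygous libraries lay above all uninjured wild-type ones, by 0.78 ± 0.19 (adjusted p = 0.0141), a call lost without wild-type uninjured replicates 2 and 3 or homozygous uninjured replicate 3 (adjusted p = 0.0521 to 0.0677). Injured homozygotes overlapped wild type because replicate 1 had the lowest value of the 8, and the estimate was 0.41 ± 0.19 (adjusted p = 0.267). In the average homozygotes were higher by 0.60 ± 0.13 (adjusted p = 0.00408).

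GstE7 had 26.0, 19.4, 21.5 and 20.6 CPM in uninjured and 24.8, 33.7, 42.3 and 21.8 CPM in injured wild type, 23.6, 27.1, 24.5 and 23.7 CPM and 45.7, 25.3, 32.1 and 31.6 CPM in heterozygotes, and 34.3, 31.1, 35.9 and 30.5 CPM and 36.1, 35.5, 30.4 and 40.9 CPM in homozygotes. Uninjured homozygotes lay above uninjured wild type, and injured groups overlapped. It rose by 0.35 ± 0.10 (adjusted p = 0.0185) with injury in the average. It was higher by 0.41 ± 0.12 (adjusted p = 0.0383) in homozygotes in the average, and that call was lost without wild-type injured replicates 1, 2 and 4, wild-type uninjured replicates 2, 3 and 4, homozygous injured replicates 2 and 4 or homozygous uninjured replicates 1, 3 and 4 (adjusted p = 0.0512 to 0.102).

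GstE3 had 76.6, 64.0, 63.1 and 80.8 CPM in uninjured and 76.7, 106, 120.5 and 77.3 CPM in injured wild type, 90.2, 69.4, 85.8 and 94.5 CPM and 139, 77.8, 102 and 104 CPM in heterozygotes, and 108, 97.5, 98.5 and 94.8 CPM and 91.3, 116, 106 and 135 CPM in homozygotes. Uninjured homozygotes (94.8 to 108 CPM) lay above uninjured wild type (63.1 to 80.8 CPM). EdgeR did not call that difference over all groups, but did with only the compared groups in the fit (0.48, adjusted p = 0.0203). DESeq2 called the averaged difference of homozygotes from wild type (0.36, adjusted p = 0.0368), and edgeR did not. Injured and uninjured libraries of GstE3 overlapped in each genotype. Its average increase with injury was 0.30 ± 0.10 (adjusted p = 0.0307), lost without wild-type injured replicates 2 and 3, wild-type uninjured replicates 2 and 3, heterozygous injured replicate 1, heterozygous uninjured replicate 2, homozygous injured replicate 4 or homozygous uninjured replicates 2 and 4 (adjusted p = 0.051 to 0.0672).

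The other 9 epsilon genes were called in no comparison by edgeR's quasi-likelihood test over all groups. Their averaged injury estimates ran from -0.31 for GstE5 to 0.13 for GstE11, and their averaged homozygous estimates from -0.39 for GstE9 to 0.43 for GstE5. GstE14, an enzyme of ecdysteroid synthesis, had estimates of -0.00 ± 0.16 and 0.11 ± 0.20 in these averages. With only the compared groups in the fit, edgeR called GstE5 higher in uninjured homozygotes than in wild type (0.63, adjusted p = 0.046). GstE9 shares 40 bases with imd on the opposite strand.

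**Figure D5:**
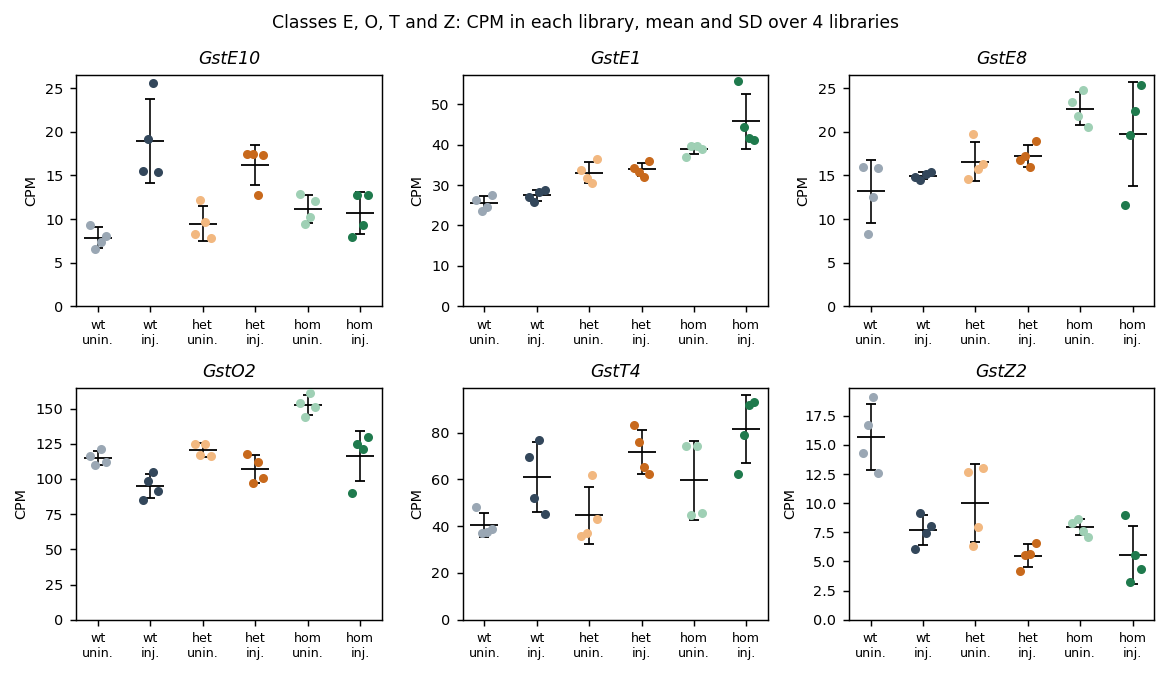
CPM in each library for 6 genes of classes E, O, T and Z (points: libraries; bars: mean and SD over 4 libraries; group names as wild type, heterozygous and homozygous, uninjured and injured). GstE10 rises with injury in wild type and heterozygotes and lies between 7.91 and 12.9 CPM in all homozygous libraries, and GstZ2 is highest in uninjured wild type at 12.6 to 19.1 CPM.

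GstO1 and GstO2 of the omega class fell with injury in the average, and GstO2 was higher without Rel. GstO2 can remove glutathione from proteins. It had 116, 110.1, 121 and 112 CPM in uninjured and 85.1, 98.8, 105 and 91.8 CPM in injured wild type. Heterozygotes had 125, 117, 125 and 116 CPM uninjured and 118, 96.8, 112 and 101 CPM injured. Homozygotes had 154, 144, 161 and 151 CPM uninjured and 89.9, 125, 121 and 129.7 CPM injured. Injured libraries lay below uninjured ones without overlap in wild type and homozygotes. The average decrease was -0.28 ± 0.06 (adjusted p = 0.00168); within homozygotes it was -0.39 ± 0.10 (adjusted p = 0.0242), lost without homozygous injured replicate 1 or homozygous uninjured replicates 1, 3 and 4 (adjusted p = 0.0594 to 0.0731) and with only the homozygous groups in the fit (adjusted p = 0.216). Uninjured homozygotes lay above all wild-type libraries by 0.41 ± 0.10 (adjusted p = 0.0205), lost without wild-type uninjured replicates 2 and 4 or homozygous uninjured replicates 1, 3 and 4 (adjusted p = 0.0562 to 0.0783), and the averaged difference was 0.35 ± 0.07 (adjusted p = 0.0022). GstO2 overlaps se, which encodes an omega enzyme of eye pigment synthesis, by 61 bases on the opposite strand.

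GstO1 had 38.8, 40.6, 41.2 and 47.2 CPM in uninjured and 38.5, 42.7, 34.2 and 40.2 CPM in injured wild type, 38.4, 47.1, 37.1 and 34.1 CPM and 29.8, 30.9, 33.6 and 37.6 CPM in heterozygotes, and 45.0, 53.8, 38.0 and 42.7 CPM and 34.7, 30.4, 35.6 and 38.8 CPM in homozygotes. The injury groups overlapped in each genotype, and the average decrease was -0.24 ± 0.07 (adjusted p = 0.0189). GstO3 was called in no comparison by edgeR's quasi-likelihood test, with -0.09 ± 0.11 for injury and 0.40 ± 0.13 for homozygotes against wild type in the averages. DESeq2 called the averaged difference of homozygotes from wild type (0.40, adjusted p = 0.0319). GstS1 had 381 ± 69.3 CPM in uninjured and 322 ± 36.8 CPM in injured wild type, and 453 ± 20.2 and 373 ± 51.1 CPM in homozygotes.

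Theta genes GstT3 and GstT4, both on the X chromosome, rose with injury in the average. GstT4 had 48.0, 37.0, 37.7 and 38.8 CPM in uninjured and 69.8, 52.0, 76.9 and 45.2 CPM in injured wild type. Heterozygotes had 36.0, 37.2, 62.1 and 43.2 CPM uninjured and 83.1, 76.1, 65.5 and 62.4 CPM injured. Homozygotes had 74.3, 44.6, 74.2 and 45.6 CPM uninjured and 62.3, 79.0, 92.0 and 93.2 CPM injured. Injury separated the libraries in heterozygotes and not in the other genotypes. The average increase was 0.58 ± 0.12 (adjusted p = 0.00111), with 0.59 ± 0.20, 0.68 ± 0.20 and 0.46 ± 0.20 in wild type, heterozygotes and homozygotes. None of these within-genotype increases was called by edgeR's quasi-likelihood test. DESeq2 called the heterozygous increase (0.68, adjusted p = 0.0224), as did edgeR with the replicate block (0.71, adjusted p = 0.0345). Homozygotes were higher than wild type in the average by 0.50 ± 0.14 (adjusted p = 0.0295), lost without wild-type injured replicates 2 and 4, wild-type uninjured replicates 2, 3 and 4, homozygous injured replicates 3 and 4 or homozygous uninjured replicates 1 and 3 (adjusted p = 0.0545 to 0.0783).

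GstT3 had 15.9, 16, 15.5 and 13.3 CPM in uninjured and 25.4, 18.3, 23.4 and 18.7 CPM in injured wild type, 19.4, 17.2, 18.6 and 20.5 CPM and 21.6, 30.2, 18.1 and 23.3 CPM in heterozygotes, and 22.1, 15.9, 20.5 and 17.8 CPM and 16.9, 23.8, 22.4 and 21.6 CPM in homozygotes. Only in wild type did the injury groups not overlap. The average increase was 0.32 ± 0.09 (adjusted p = 0.0139). GstT1 and GstT2, neighbours on 2R, were called in no comparison.

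GstZ2 was the zeta gene that moved, and it fell. Wild type had 14.3, 16.7, 19.1 and 12.6 CPM uninjured and 6.09, 9.16, 7.47 and 8.08 CPM injured. Heterozygotes had 12.7, 6.32, 7.99 and 13.0 CPM uninjured and 4.14, 5.59, 5.65 and 6.54 CPM injured. Homozygotes had 8.27, 8.68, 7.62 and 7.13 CPM uninjured and 8.99, 3.22, 5.56 and 4.36 CPM injured. The injury groups did not overlap in wild type and overlapped in the mutants. The decrease was -1.02 ± 0.24 (adjusted p = 0.0158) in wild type, lost without wild-type injured replicate 1 or wild-type uninjured replicate 3 (adjusted p = 0.0587 to 0.0643). In heterozygotes it was -0.88 ± 0.25 (adjusted p = 0.0417), lost without heterozygous injured replicates 1, 2 and 3 or heterozygous uninjured replicates 1 and 4 (adjusted p = 0.0713 to 0.168) and with only the heterozygous groups in the fit (adjusted p = 0.128), and the homozygous estimate was -0.54 ± 0.25 (adjusted p = 0.212). Uninjured homozygotes were lower than wild type without overlap, by -0.99 ± 0.24 (adjusted p = 0.0156), lost without wild-type uninjured replicate 3 or homozygous uninjured replicates 3 and 4 (adjusted p = 0.0541 to 0.069). GstZ1 and GstZ2 lie 0.408 and 0.409 Mb from Rel on 3R, and GstZ1 was called in no comparison.

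Among other genes of glutathione and redox metabolism, 33 of 46 listed symbols were in the table and tested. Some listed symbols were alternative names of the same gene, so the symbols not found are not all missing genes. With injury averaged over genotypes, 10 rose and 1 fell, set against the 18.3% of all genes called in that comparison. The risers included Gclc (0.34 ± 0.07 (adjusted p = 0.00145)), the catalytic subunit for the first step of glutathione synthesis, and the glutathione synthetase genes Gss1 and Gss2. The pair had the same CPM in every library and the same estimate, 0.33 ± 0.11 (adjusted p = 0.0344), and may share reads as near-identical copies. Both are counted among the 33 genes and the 10 risers, although they are not separate measurements. The regulators cnc (0.26 ± 0.07 (adjusted p = 0.00659)) and Keap1 (0.20 ± 0.07 (adjusted p = 0.048)) rose too, as did the thioredoxin reductase gene Trxr-1 (0.45 ± 0.13 (adjusted p = 0.021)), the peroxiredoxin gene Jafrac1 (0.34 ± 0.07 (adjusted p = 0.00119)) and Ggt-1 (0.34 ± 0.09 (adjusted p = 0.00902)), which breaks down glutathione outside cells. Clic and eEF1gamma, which carry glutathione transferase folds, rose by 0.33 ± 0.08 and 0.37 ± 0.07. The transferase-domain gene gfzf fell, at -0.17 ± 0.05 (adjusted p = 0.0245). Fits that left out 1 library lost the calls of Gss1, Gss2 and Keap1 in 12, 12 and 20 of 24 cases.

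Within genotypes the list gave fewer calls: Ggt-1 in wild type (0.56 ± 0.16 (adjusted p = 0.0435)), none in heterozygotes, and Gs1, cnc, Keap1 and Clic in homozygotes, with log2 increases of 0.34 to 0.47. These 5 calls were each lost in 4 to 7 of 8 fits that left out 1 library. Gs1 encodes glutamine synthetase 1, which is not an enzyme of glutathione synthesis. In wild type, heterozygotes and homozygotes 1, 0 and 4 of the 33 genes were called, beside 3.79%, 4.74% and 5.86% of all genes. Between genotypes, homozygotes against wild type in the average gave a higher glutaredoxin gene Grx1 (0.57 ± 0.09 (adjusted p = 0.000112)) and a lower thioredoxin reductase gene Trxr-2 (-0.61 ± 0.19 (adjusted p = 0.0428), lost in 11 of 16 fits that left out 1 library). No other gene of the list was called in that comparison, where its median was 0.07. Thus 1 of the 33 genes was higher and 1 lower, against 9.11% of all genes called.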

How the data were processed

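RNA of 24 libraries was measured, 4 in each of 6 groups set by the labels. The authors deposited expected counts per gene and per transcript, and tables of their own comparisons with log2 fold changes and adjusted p-values, which are not used for the results. RSEM 1.2.22, STAR 2.4.2a, edgeR 3.10.5 and CASAVA are named beside build dm6, per the submitters' processing notes; whether counting used strand is not given in the sources used here. All deposited values were whole numbers, so rounding changed nothing.

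Counts were tested here with edgeR 4.0.16 (R 4.3.3): TMM factors, filterByExpr, 1 mean per group over all libraries (18 residual degrees of freedom) and the two-sided quasi-likelihood test, in 13 contrasts. Adjusted p-values are Benjamini-Hochberg values over all 13868 genes tested, and a gene was called under 0.05. CPM uses effective library sizes. CPM per kb divides by annotated transcript length weighted by transcript counts. The floor of 3 counts covers counting error only and may understate it, since reads copied by PCR are not independent molecules. The SD of a level is the spread among the 4 libraries of a group. The fit was tested on simulated counts. Members called in any contrast were described in full, others by range. The members and lists were chosen with earlier results of these data known. Alternatives were median-of-ratios factors, DESeq2 1.42.0 (on all genes with a count and, added after seeing the data, on the filtered genes), no low-count filter, a replicate block, only the compared groups, and each library left out.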

Additional observations from a re-analysis of the deposited data

Results flagged for a closer look

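A library was singled out when its distance to the nearest of the other 3 libraries of its group was large beside the range of the group (Dixon's test). Among 126 sets of 4 libraries (21 called genes in 6 groups) 5 were singled out, and chance alone gives about 6.3.

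GstD5 stood at 77.6 CPM in wild-type injured replicate 3, against 28.0 to 36.3 CPM in the other 3 libraries. It stood at 19.0 CPM in homozygous injured replicate 4, against 3.41 to 4.68 CPM. GstD6 stood at 1.43 CPM in heterozygous uninjured replicate 2, against 0.754 to 0.852 CPM. GstE10 stood at 12.8 CPM in heterozygous injured replicate 3, against 17.3 to 17.4 CPM. GstT4 stood at 48.0 CPM in wild-type uninjured replicate 1, against 37.0 to 38.8 CPM.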

How the results depend on the processing

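No call changed direction in any fit. Of 72 calls of glutathione transferase genes, all held with median-of-ratios factors, DESeq2 (with or without the low-count filter) or no low-count filter in edgeR, and 51 held in every fit that left out 1 library. With only the compared groups in the fit, 29 of 36 pairwise calls held. Counts of called genes moved beyond 1.5 times as follows. DESeq2 without the low-count filter, which changes both the test and the genes tested, gave 5 in place of 3 for injury in homozygotes, 1 in place of 0 for uninjured heterozygotes against wild type, 8 in place of 5 for homozygotes against heterozygotes, and 1 in place of 0 for the injury response of homozygotes minus wild type. DESeq2 on the filtered genes, an alternative chosen after seeing the data, gave 8 and 1 for the last 2, and the first 2 came to 4 and 0. With only the compared groups, injury in homozygotes gave 1, and injured heterozygotes against wild type gave 0 in place of 1.

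Leaving out 1 library gave 6 to 8 genes for injury in wild type, 4 to 7 in heterozygotes, 2 to 3 in homozygotes and 12 to 15 in the average. It gave 5 to 9 for uninjured and 8 to 12 for injured homozygotes against wild type, 12 to 18 for their average, 0 to 1 for injured heterozygotes, and 5 to 8 for homozygotes against heterozygotes.

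Replicate numbers did not pair the libraries: 23 of 60 same-number pairs had a correlation of deviations over 0.1 (median -0.0261), and 5 of 24 libraries correlated best with their own number. With the replicate block 67 of 72 calls held, and injured heterozygotes against wild type gave 0.

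Depth limits GstD4, GstD6 and GstD7, which had 0 to 41 counts in a library. Opposite-strand overlaps limit GstE1, GstE9, GstE10, GstE12, GstE13, GstO2 and GstT2.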

Other observations

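GstZ2 has more than 1 transcript with reads. The authors' expected counts put 39.2% ± 8.3 (SD, n = 4) of its reads on the 2202-base transcript in uninjured and 51% ± 12.1 in injured wild type. The shares were 38.1% ± 5.99 and 54.9% ± 4.99 in heterozygotes, and 45% ± 11.1 and 71.2% ± 11 in homozygotes. These shares were not tested, the wild-type means differed by about the SD of the injured group, and they rest on 22 to 248 counts of GstZ2 per library. For comparison, the main transcript of GstD1 held 98.5% to 99.3% of its reads in each group. Other members were mixed too: the main transcript held 57.3% to 67.4% in GstS1 and 66.1% to 79.1% in GstT3. In GstD10 it held 57.4% ± 32.3 in uninjured and 83.5% ± 11.3 in injured wild type.

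Under an adjusted p of 0.05, the authors' deposited tables differed in part from the calls here. For injury in wild type the authors' deposited table had 8 members higher after injury, GstT4 among them, and GstZ2 lower, with 6.69% of the table under that threshold. For uninjured homozygotes the authors' deposited table had 8 members higher (GstE1, GstE3, GstE5, GstE7, GstE8, GstO2, GstO3 and GstT4) and 5 lower than wild type, with 6.42% of the table under that threshold. For uninjured heterozygotes the authors' deposited table had GstD5 as the only member called, lower than in wild type, with 1.12% of the table under that threshold.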
